A study of Mus musculus with 22 samples.

Results

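Laminins, proteoglycans and the other secreted glycoproteins of the extracellular matrix were followed in ribosome-bound mRNA of mouse optic nerve astrocytes. The set was a list of 48 genes chosen by symbol, and all 48 were found among the 29367 genes of the count table. It held 10 laminin chains, 4 partners of laminin in the basement membrane, 9 genes of fibronectin, tenascins and neural proteoglycans, 6 small leucine-rich proteoglycans, 10 matricellular glycoproteins, and 9 genes of elastic fibres and of the enzymes that crosslink them. The rule used gene symbols and no measured value, but the list was chosen with earlier results of these data known.

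The study asked how optic nerve astrocytes respond to raised intraocular pressure. Microbeads were injected into the eye of mice aged 3 to 4 months, and the optic nerve head (ONH, the unmyelinated part next to the eye) and the optic nerve proper (ONP, the myelinated part behind it) were dissected 7 or 30 days later. Each library came from pooled tissue of 4 mice, 2 male and 2 female, with 7 libraries per region at 30 days and 4 per region at 7 days, 22 in all. Every mouse came from a cross of B6J.129(Cg)-Rpl22tm1.1Psam/SjJ, which carries an HA tag on the ribosomal protein RPL22, with a transgenic strain carrying GFAP-Cre, which switches the tag on in cells where the GFAP promoter is active. The genotype label of all 4 groups was WT, and all 4 groups had been injected with microbeads. Uninjected mice were not analysed here, so no value below is a response to injury. The tag reports any cell in which the GFAP promoter drove Cre, and a pool hides the spread between its mice.

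Astrocytes secrete a large part of the matrix of the central nervous system. Laminin trimers of an alpha, a beta and a gamma chain form sheets that nidogens, perlecan and agrin link to collagen IV, and astrocyte endfeet rest on such sheets at vessels and at the pial surface. Between the cells lies a softer matrix of hyaluronan, lecticans (aggrecan, brevican, neurocan and versican) and tenascins, while fibronectin, fibulins and elastin belong to connective tissue, which in the optic nerve surrounds vessels and the nerve itself.

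Libraries held 18026821 to 24746846 counts in the ONH at 30 days, 16819713 to 33307092 in the ONH at 7 days, 17583904 to 25197193 in the ONP at 30 days and 16292489 to 28729105 in the ONP at 7 days. Levels are given as CPM, the counts of a gene scaled to library size by the TMM method, as mean ± SD over libraries. Differences are log2 fold changes (log2FC) with their standard error (SE) from edgeR's quasi-likelihood test. A gene was called when its Benjamini-Hochberg adjusted p-value over all genes tested was under 0.05. Counts came from a kit that does not mark strand, so Thbs3, whose exons share 318 bases with Mtx1, and Fbn1, which shares 2442 bases with Gm9913, could hold reads of these neighbours. Spp1, Tnr, Tnc, Nid1, Nid2, Fn1, Prelp, Eln, Fbn2, Loxl2 and Tnxb overlap another gene over 3 to 443 bases.

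All 15 astrocyte markers were detected in every group, and their summed level ranged from 15280 to 37011 CPM, with Gfap the most abundant. Detection does not test the astrocyte label, since every marker of oligodendrocytes and of their precursors was detected in every group too. Enrichment of astrocyte mRNA over whole tissue was not tested here. Markers of other cells were present as well. The 12 oligodendrocyte markers, led by Mbp, summed to 13677 to 41112 CPM in the ONH and 26495 to 111584 CPM in the ONP, and the 8 markers of oligodendrocyte precursors to 503.5 to 1276 CPM and 1249 to 3098 CPM.

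Some libraries stood apart. Photoreceptor markers summed to over 1000 CPM in pool 4 of the ONH at 30 days (2321 CPM) and in libraries 5 (1463 CPM) and 6 (5958 CPM) of the ONH at 7 days. Library 6 also had the highest fibroblast marker sum of all 22 libraries, 2116 CPM. Pool 7 at 30 days had the highest sums of microglia and macrophage markers, 5913 CPM in the ONH and 7577 CPM in the ONP. Counts of called genes without these libraries are given beside the results, and in bulk RNA fewer cells of a type and less RNA per cell cannot be told apart.

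The most abundant matrix mRNA per length of transcript was that of Sparc, a secreted glycoprotein that binds collagen and calcium. At 30 days it had 2655 ± 581 CPM per kb of exons (SD, n = 7) in the ONH and 803 ± 113 CPM per kb in the ONP. Its relative Sparcl1 (hevin), which astrocytes secrete at synapses, followed with 215 ± 70.1 CPM per kb in the ONH and 707 ± 280 CPM per kb in the ONP. In the ONP these 2 levels lay within 1 SD of Sparcl1 of each other, and in the ONH they lay far apart. Spp1 (osteopontin) had rank 3 in both regions, although a single pool carried most of it. Prelp, a small proteoglycan of connective tissue, and Bcan (brevican) had ranks 4 and 5 in the ONH and ranks 5 and 4 in the ONP, by means that lay within 1 SD of Prelp in the ONH. At the other end, Lamb3 (0.0278 CPM per kb), Acan (0.00742 CPM per kb) and Hapln1 (0.00253 CPM per kb) had the lowest levels in the ONH.

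**Figure D1:**
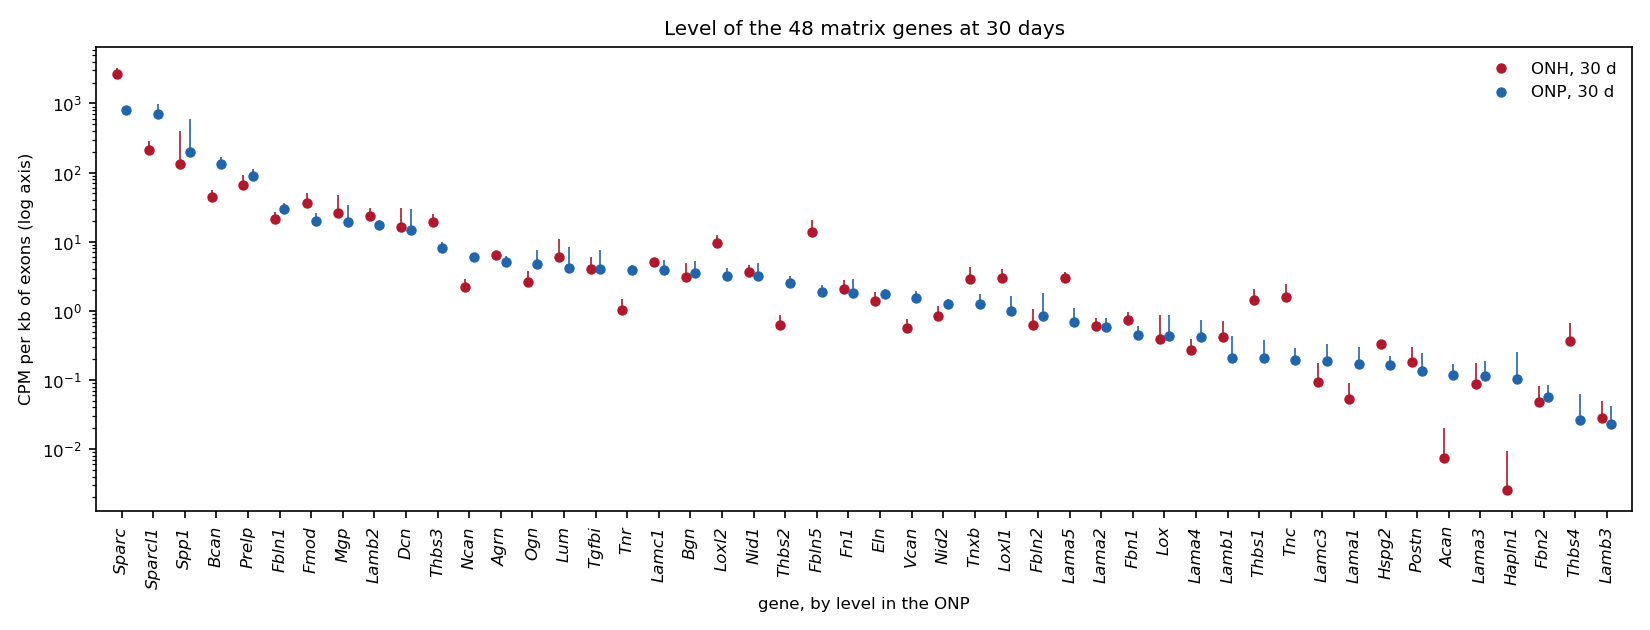
Level of the 48 matrix genes at 30 days in CPM per kb of exons on a log axis, ordered by level in the ONP. Points are means of 7 libraries (red, ONH; blue, ONP) and lines reach up by 1 SD; Sparc lies highest, and Fbln5, Tnc, Thbs1 and Lama5 stand higher in the ONH than in the ONP, Tnr, Thbs2 and Ncan lower.

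The 2 genes with the smallest p-value in each direction between the regions at 30 days, among those with a single promoter window, are shown with that window, 250 bases before to 50 after the RefSeq start (GRCm38.p6), read 5′ to 3′ on the strand of the gene. Sparc and Thbs3 were higher in the ONH, Bcan and Ncan in the ONP. Capitals mark 3 short motifs, searched on both strands and free to overlap. The TATA box was searched as TATAAA. For the CCAAT box the letters were CCAAT. The letters of the GC box were GGGCGG.
Sparc, chr11:55420031-55420330, minus strand: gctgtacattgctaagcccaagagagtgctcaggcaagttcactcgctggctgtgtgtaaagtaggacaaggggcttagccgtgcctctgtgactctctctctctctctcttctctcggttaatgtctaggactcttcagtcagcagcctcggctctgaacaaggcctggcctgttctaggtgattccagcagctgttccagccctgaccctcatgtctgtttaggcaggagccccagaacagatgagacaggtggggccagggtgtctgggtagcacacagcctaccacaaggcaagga
Thbs3, chr3:89214930-89215229, plus strand: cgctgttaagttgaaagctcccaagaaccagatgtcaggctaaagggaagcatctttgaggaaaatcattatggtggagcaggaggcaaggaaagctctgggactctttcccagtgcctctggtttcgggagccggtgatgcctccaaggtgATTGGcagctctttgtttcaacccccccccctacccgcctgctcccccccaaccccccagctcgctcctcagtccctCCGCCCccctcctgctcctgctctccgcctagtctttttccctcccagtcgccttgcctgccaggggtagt
Bcan, chr3:88000307-88000606, minus strand: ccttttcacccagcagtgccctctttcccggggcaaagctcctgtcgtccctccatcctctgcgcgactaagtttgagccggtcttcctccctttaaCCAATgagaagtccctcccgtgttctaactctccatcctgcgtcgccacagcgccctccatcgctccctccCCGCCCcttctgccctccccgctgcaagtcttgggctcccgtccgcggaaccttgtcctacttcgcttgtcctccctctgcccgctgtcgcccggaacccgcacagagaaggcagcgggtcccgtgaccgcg
Ncan, chr8:70120795-70121094, minus strand: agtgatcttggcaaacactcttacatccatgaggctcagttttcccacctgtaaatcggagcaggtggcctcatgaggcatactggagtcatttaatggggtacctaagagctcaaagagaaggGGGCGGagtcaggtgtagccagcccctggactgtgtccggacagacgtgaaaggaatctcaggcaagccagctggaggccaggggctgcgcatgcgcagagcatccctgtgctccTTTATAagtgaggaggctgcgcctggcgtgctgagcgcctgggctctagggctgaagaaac
Sparc held none of the 3 motifs, Thbs3 and Bcan held a CCAAT box and a GC box each, and Ncan a TATA box and a GC box. Of all 32851 RefSeq windows of this length, 13.6% held the TATA letters, 37.4% the CCAAT letters and 35.7% the GC box letters. Promoters matched 31 of the 48 genes with 38 windows, of which 7, 12 and 21 held the motifs.

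The ONH and ONP at 30 days differed in 21 of the 44 matrix genes tested, against 41.8% of all 15133 genes. Of these, 14 were higher in the ONH (21.8% of all genes) and 7 higher in the ONP (20% of all genes). The median log2FC over the tested matrix genes was 0.13, against -0.01 over all genes, and 8 of the 44 had all ONH pools above all ONP pools, with 5 the other way (8.48% and 8.04% of all genes). The largest called differences towards the ONH were those of Tnc, Fbln5, Thbs1 and Lama5, and towards the ONP those of Thbs2, Tnr, Sparcl1 and Lama1. Tnc and Thbs1 reached the level of the filter in every library of the ONH alone and Lama1 in every library of the ONP alone, so that these 3 were tested through the region where they were high, and the other 18 called genes reached it in every library of both. The study took ONH and ONP from the same mice. At 30 days equal numbers were taken to mark one pool, which the labels do not state. With the pool as a block 24 were called, and Lamb1 (log2FC 1.19, adjusted p = 0.0226), Lamc1 (0.53, adjusted p = 0.0343) and Fbln1 (-0.48, adjusted p = 0.0289) were added, all by edgeR. Without the pool rich in photoreceptor markers 22 were called, and without pool 7 there were 20.

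At 7 days the contrast of ONH with ONP rested on other mice and called 13 of the 44 matrix genes tested, against 13.2% of all 14752 genes. Among them 7 were higher in the ONH (6.34% of all genes) and 6 lower (6.81%). The median log2FC was 0.48 over the tested matrix genes and 0.07 over all genes, and 7 of the 44 had all ONH libraries above all ONP libraries, with 5 the other way (9.88% and 11.9% of all genes). The 12 genes called at both times, 7 higher and 5 lower in the ONH, made up 57.1% of the 21 genes called at 30 days and 92.3% of the 13 called at 7 days. Of the 13 called at 7 days, Tnc, Thbs1 and Lamb3 reached the level of the filter in every library of 1 region only, the one where they were high. All 21 genes called at 30 days had the same sign at 7 days, and of 6183 genes called at 30 days among all genes, 90.2% had the same sign and 26.1% were called at 7 days. Without libraries 5 and 6 of the ONH, 12 matrix genes were called at 7 days. With library 1 of the ONP left out there were 7, and with library 5 of the ONP left out there were 8.

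**Figure D2:**
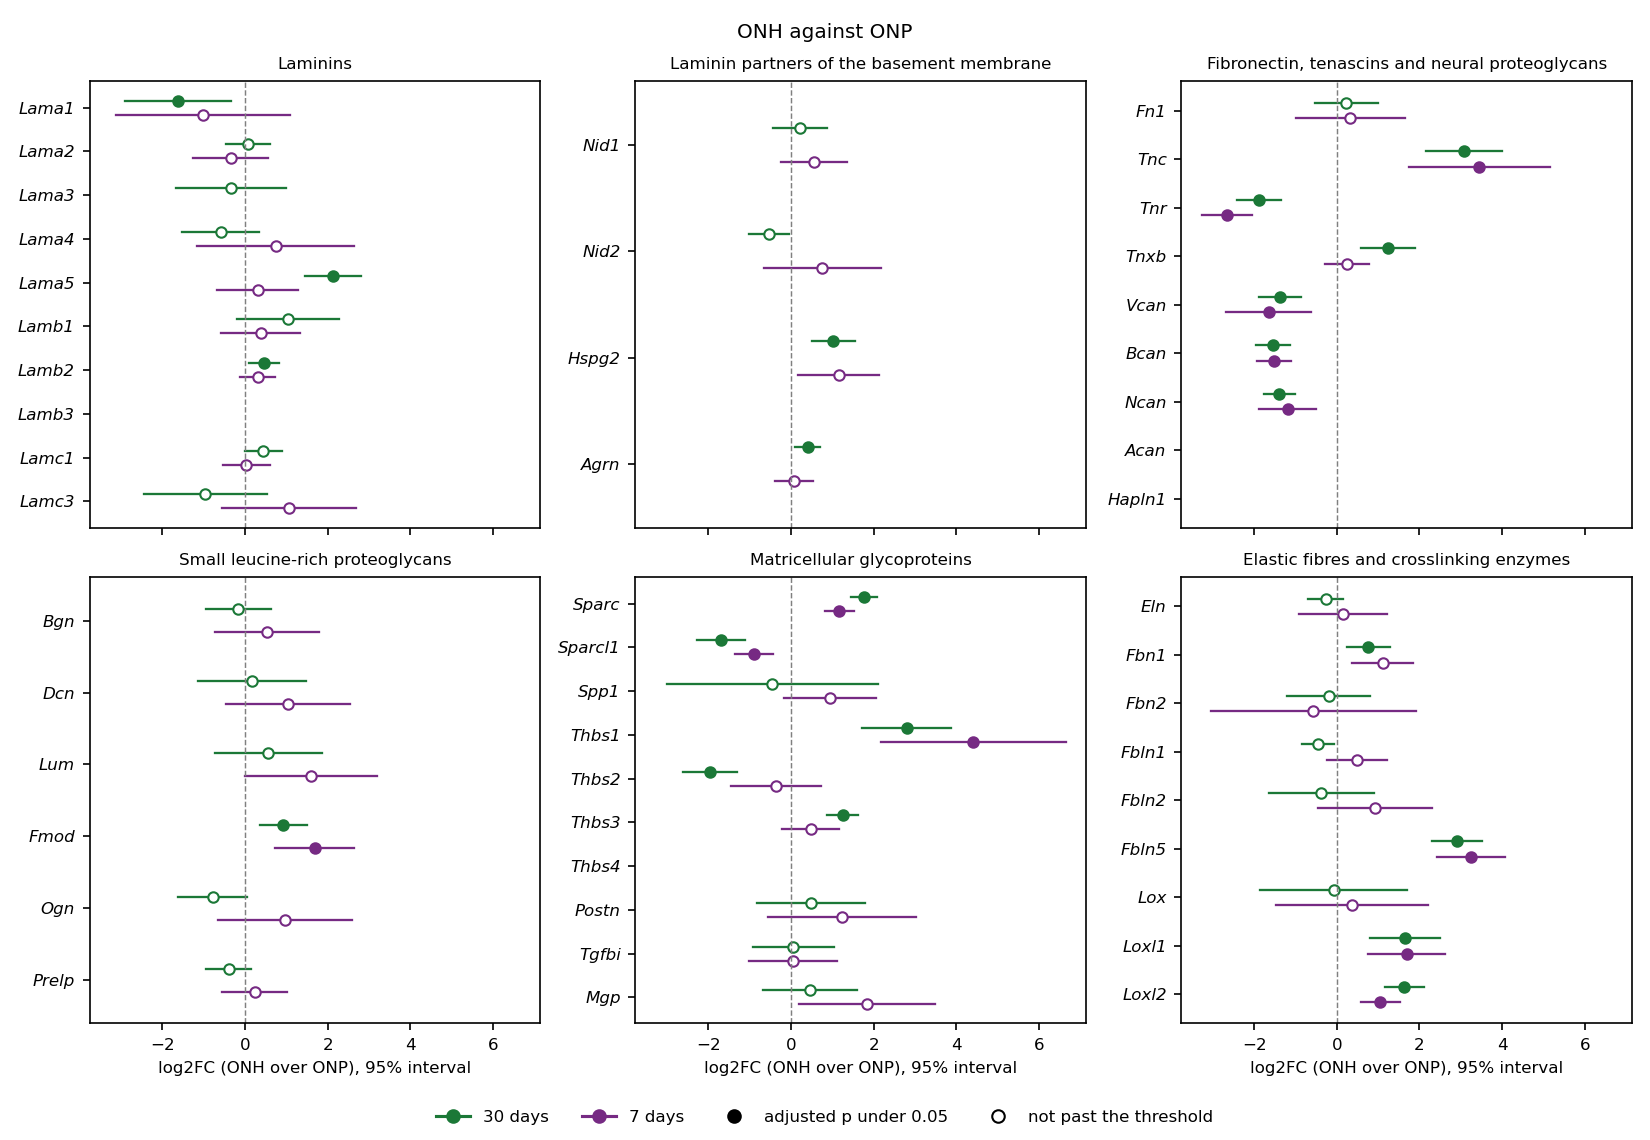
Differences of the tested matrix genes between ONH and ONP as log2FC with 95% interval, by role, at 30 days (green) and 7 days (purple). Filled points had an adjusted p-value under 0.05. Fbln5, Tnc and Thbs1 lie farthest to the right (higher in the ONH) and Tnr among the farthest to the left at both times. Lamb3 at 7 days is not drawn because the ONH was at 0. Among the filled points, Tnc and Thbs1 passed the filter through the ONH alone and Lama1 through the ONP alone, so these are a description.

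Of 9 laminin chains tested 3 were called between the regions at 30 days, Lama5 and Lamb2 higher and Lama1 lower in the ONH, and at 7 days 1 of 9, Lamb3, where 41.8% (30 days) and 13.2% (7 days) of all genes were called. Lama1 and Lamb3 passed the filter through the ONP alone. Lama5 is an alpha chain of many mature basement membranes. In the ONH at 30 days it ranged from 25.2 to 47.9 CPM with a median of 30.9 CPM, and in the ONP from 3.02 to 13.8 CPM with a median of 5.62 CPM. The 2 regions did not overlap, and the log2FC was 2.13 (SE 0.32, edgeR adjusted p = 9.52e-05). At 7 days libraries 1, 3, 5 and 6 of the ONH had 20.6, 35.8, 24.1 and 14.6 CPM, and libraries 1, 2, 5 and 6 of the ONP had 9.11, 37.7, 19.5 and 11.9 CPM. There the regions overlapped throughout, since library 2 of the ONP was the highest of the 8, and the log2FC was 0.31 (SE 0.44, edgeR adjusted p = 0.685). The difference between the regions in the change from 7 to 30 days was -1.84 on the log2 scale (SE 0.56) with an adjusted p of 0.14 by edgeR and 0.0484 by DESeq2, so it was called by only one of these tools.

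Lamb2, a beta chain of vessel and synaptic basement membranes and the most abundant laminin mRNA per kb in both regions at 30 days, had 144 ± 40.1 CPM (SD, n = 7) in the ONH and 107 ± 20.1 CPM (SD, n = 7) in the ONP at 30 days, a log2FC of 0.46 (SE 0.17, edgeR adjusted p = 0.0381). Lama1, a chain of the pial and embryonic basement membrane, was lower in the ONH, with 0.519 ± 0.356 CPM against 1.64 ± 1.24 CPM (fitted log2FC -1.61, a description, since the filter was passed through the ONP alone). The regions overlapped for both genes. Of 23 alternatives for Lama1 and 24 for Lamb2, 12 and 11 took the call away. Lama2, Lama3, Lama4, Lamb1, Lamc1 and Lamc3 did not pass the threshold at either time by edgeR without a block, with log2FC from -0.96 to 1.06. At 30 days Lamb1 and Lamc1 were called higher in the ONH by edgeR with the pool as a block (adjusted p = 0.0226 and 0.0343). The same 2 genes were called by limma-voom (adjusted p = 0.0258 and 0.0153). Lama3 was left out by the filter at 7 days.

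Lamb3, a chain of epithelial laminin, lay near the limit of detection. It was at 0 in all 4 ONH libraries at 7 days, and libraries 1, 2, 5 and 6 of the ONP had 1.04, 0.831, 1.41 and 0.767 CPM. The groups did not overlap. Over the group the ONP held 84 counts, or 0.961 CPM, so that against the limit of 3 counts over the ONH group (0.0356 CPM) Lamb3 was at least 27.0-fold higher in the ONP at 7 days. This limit covers counting error only, and since the gene passed the filter through the ONP libraries alone, its call at 7 days is given as a description. At 30 days Lamb3 ranged from 0 to 0.388 CPM in the ONH with a median of 0.236 CPM, and from 0 to 0.325 CPM in the ONP with a median of 0.13 CPM. The 30 day pools of both regions overlapped, and Lamb3 was left out of that comparison by the filter. The sum of the 12 surface epithelium markers, led by Krt15, ranged from 10.9 to 108 CPM in the 4 ONP libraries at 7 days and from 14.7 to 341 CPM in the 4 ONH libraries, where Lamb3 was at 0. From 7 to 30 days in the ONP 6 of the 7 epithelial markers tested were lower (median log2FC -2.78), with Krt14 called (-5.53, edgeR adjusted p = 0.00569). The part of epithelial cells in the level of Lamb3 was not tested.

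Among the partners of laminin, Hspg2, the gene of the heparan sulphate proteoglycan perlecan, ranged from 4.09 to 5.52 CPM in the ONH at 30 days (median 4.61 CPM) and from 1.0 to 3.57 CPM in the ONP (median 2.42 CPM). The regions did not overlap, with a log2FC of 1.02 (SE 0.25, edgeR adjusted p = 0.00358). At 7 days the ONH libraries 1, 3, 5 and 6 had 4.91, 5.78, 11.7 and 14.7 CPM and the ONP libraries 1, 2, 5 and 6 had 3.79, 2.69, 4.18 and 6.25 CPM. The high ONH values were those of the libraries rich in photoreceptor markers, the highest ONP library overlapped the ONH, and the log2FC of 1.16 (SE 0.45) was not called (edgeR adjusted p = 0.115). Agrn, the gene of agrin, was higher in the ONH at 30 days by 0.41 on the log2 scale (SE 0.14, edgeR adjusted p = 0.0326), a call that 7 of 24 alternatives took away. The nidogens, which tie laminin to collagen IV, had log2FC of 0.23 (Nid1) and -0.53 (Nid2) at 30 days and were not called by edgeR. Nid2 was called lower in the ONH at 30 days by DESeq2 (adjusted p = 0.0499) and by limma-voom (adjusted p = 0.0192).

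Of the genes of fibronectin, tenascins and neural proteoglycans, 6 of the 7 tested were called between the regions at 30 days and 5 of 7 at 7 days, where 41.8% and 13.2% of all genes were. Both counts hold Tnc, which passed the filter through the ONH alone, and Bcan, Ncan, Vcan and Tnr were higher in the ONP at both times. Bcan ranged from 127 to 267 CPM in the ONH at 30 days, with a median of 174 CPM, and from 343 to 694 CPM in the ONP, with a median of 579 CPM. At 7 days it had 113, 188, 137 and 118 CPM in libraries 1, 3, 5 and 6 of the ONH and 405, 376, 445 and 391 CPM in libraries 1, 2, 5 and 6 of the ONP. Every ONP library lay above every ONH library at both times, and the log2FC were -1.53 (SE 0.19, edgeR adjusted p = 2.36e-05) at 30 days and -1.51 (SE 0.19, edgeR adjusted p = 0.000674) at 7 days. Tnr, the gene of tenascin R, which crosslinks lecticans, had the largest difference towards the ONP among the genes of the group that passed the filter. It had 8.57, 7.73, 4.43 and 6.19 CPM in the 7 day ONH libraries and 34.8, 54.6, 34.7 and 49.2 CPM in the 7 day ONP libraries, again without overlap. Its log2FC were -2.66 at 7 days (SE 0.27, edgeR adjusted p = 0.00027) and -1.89 at 30 days (SE 0.25, edgeR adjusted p = 3.46e-05).

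Ncan (neurocan) was lower in the ONH by 1.39 on the log2 scale at 30 days (16.1 ± 4.63 against 43.3 ± 5.69 CPM) and by 1.19 at 7 days (8.69 ± 1.16 against 20.2 ± 7.40 CPM), with edgeR adjusted p-values of 2.82e-05 and 0.0302. Vcan (versican) was lower by 1.37 at 30 days and by 1.65 at 7 days, with edgeR adjusted p-values of 0.000312 and 0.0419, and its 7 day groups overlapped. The 7 day calls of Ncan and Vcan were lost in 6 and 8 of 16 alternatives. Acan (aggrecan) was at 0 in all 4 ONH libraries at 7 days and in 5 of 7 at 30 days, while the ONP had 0.891 ± 0.391 CPM at 30 days. Hapln1, the link protein that binds lecticans to hyaluronan, was at 0 in all 4 ONP libraries at 7 days and had 0.612 ± 0.882 CPM in the ONP at 30 days. There pool 2 held 59 of the 95 Hapln1 counts, and without it the mean was 0.289 ± 0.237 CPM (SD, n = 6). The filter left Hapln1 out of every comparison and Acan out of all but 2, so no fold change is given for them.

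Bcan, Ncan, Vcan and Tnr are known from astrocytes and from the oligodendrocyte lineage alike. All 8 precursor markers were lower in the ONH at both times, 6 of them called at 30 days with a median log2FC of -1.35 over the list and 6 called at 7 days with a median of -1.71, and 10 and 12 of the 12 oligodendrocyte markers were called lower. Olig1 was the most abundant precursor marker in the ONP and Bcas1 in the ONH, and no marker of either list was at 0 throughout a group. Within the ONP at 30 days the 3 pools with the most Bcan (653 to 694 CPM, pools 1, 2 and 3) had the lowest precursor sums, 1249 to 1629 CPM. Vcan was highest in pool 7 (34.9 CPM) and Tnr in pool 4 (62.9 CPM), whose precursor sums were 2165 and 2011 CPM, and Ncan in pool 2 (49.4 CPM), whose sum was 1415 CPM. The part of these cells in the regional difference was not tested.

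Tenascin C, a tenascin of remodelling tissue, went the other way. Tnc ranged from 4.16 to 24.1 CPM in the ONH at 30 days (median 13.9 CPM) and from 0.446 to 2.18 CPM in the ONP (median 1.99 CPM). In the ONH at 7 days libraries 1, 3, 5 and 6 had 40.1, 19.3, 8.54 and 21.8 CPM, and in the ONP libraries 1, 2, 5 and 6 had 3.30, 0.0639, 1.78 and 3.15 CPM. All ONH libraries lay above all ONP libraries at both times. The fitted log2FC were 3.08 at 30 days and 3.45 at 7 days. They are given as a description, since Tnc passed the filter through the ONH libraries alone at both times. Tnxb, the tenascin of loose connective tissue, was higher in the ONH at 30 days (log2FC 1.24, SE 0.31, edgeR adjusted p = 0.00422), and at 7 days it had a log2FC of 0.25 and was not called. Fn1 (fibronectin) was not called at either time, with log2FC of 0.23 and 0.33.

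**Figure D3:**
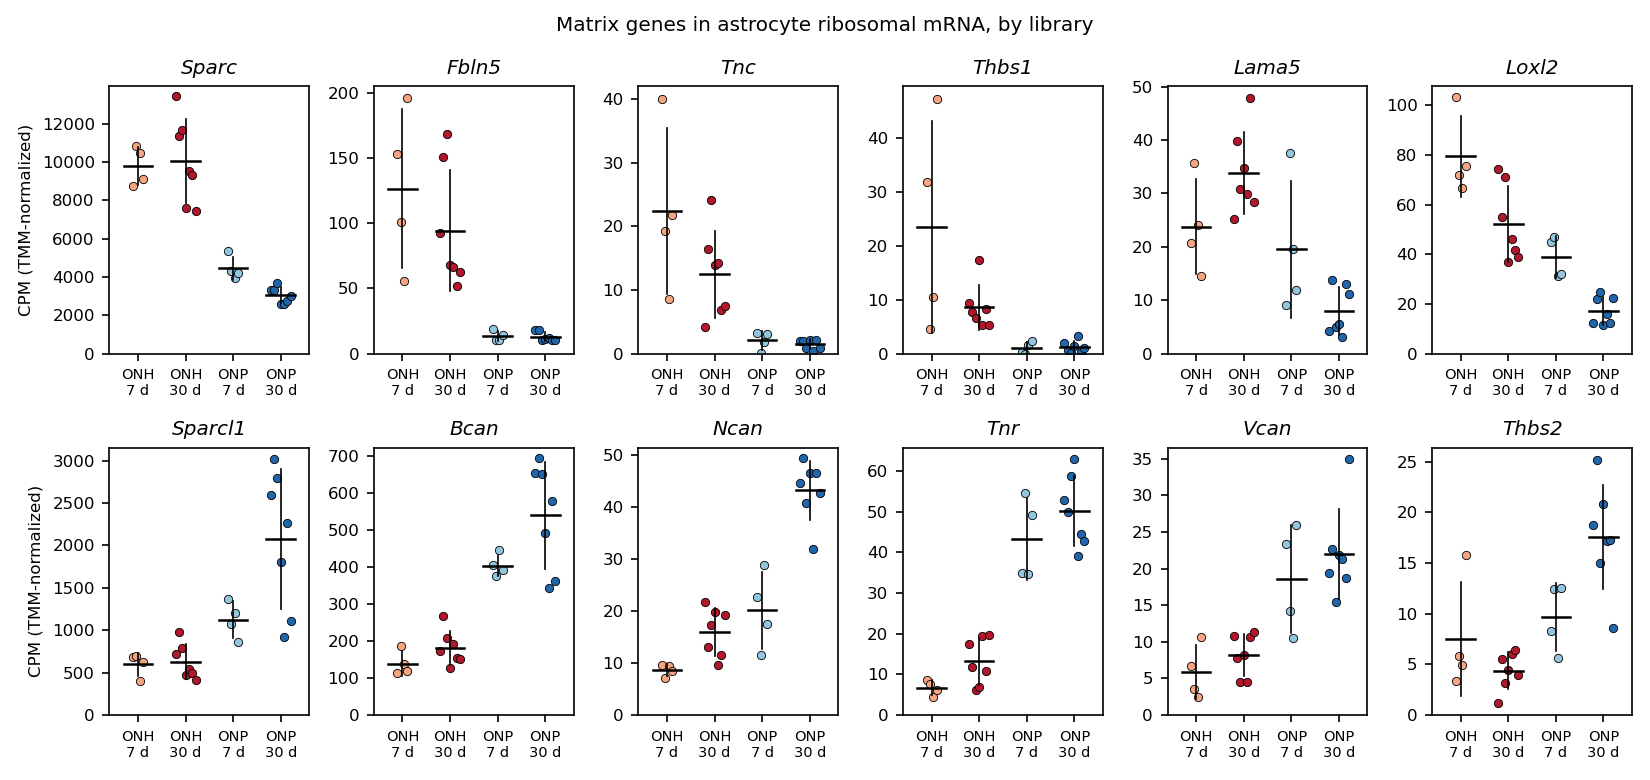
Level of 12 matrix genes in each of the 22 libraries in CPM after TMM scaling. Points are libraries, horizontal lines are group means and vertical lines 1 SD to either side (cut at 0); the upper row holds genes higher in the ONH and the lower row genes higher in the ONP at 30 days, and for Bcan and Tnr no ONP library falls as low as any ONH library.

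Matricellular glycoproteins modulate cell adhesion without bearing load, and 5 of the 9 tested differed between the regions at 30 days, where 41.8% of all genes did. Sparc had the smallest p-value of the 44 tested there. It ranged from 7463 to 13426 CPM in the ONH at 30 days (median 9553 CPM) and from 2579 to 3704 CPM in the ONP (median 3028 CPM). At 7 days the ONH libraries 1, 3, 5 and 6 had 8742, 10822, 10465 and 9120 CPM and the ONP libraries 1, 2, 5 and 6 had 5331, 4295, 3952 and 4195 CPM. No ONP library reached the lowest ONH library at either time, and the log2FC were 1.76 (SE 0.15, edgeR adjusted p = 5.88e-07) and 1.17 (SE 0.16, edgeR adjusted p = 0.00112). Sparcl1 had the opposite order, with 631 ± 206 CPM in the ONH and 2075 ± 824 CPM in the ONP at 30 days (log2FC -1.68, SE 0.28, edgeR adjusted p = 0.000206) and 601 ± 136 against 1126 ± 216 CPM at 7 days (log2FC -0.88, SE 0.21, edgeR adjusted p = 0.0186). The 7 day call of Sparcl1 was lost without library 1, 2 or 5 of the ONP, 3 of 16 alternatives. Its groups overlapped at 30 days, where the lowest ONP pool (924 CPM, pool 5) lay under the highest ONH pool (976 CPM, pool 2).

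The thrombospondins, which bind matrix, integrins and latent TGF-beta or promote synapses, split between the regions. Thbs1 was higher in the ONH at 30 days, with a range of 5.37 to 17.4 CPM against 0.169 to 3.17 CPM (fitted log2FC 2.80). At 7 days the ONH libraries 1, 3, 5 and 6 had 31.9, 4.56, 10.5 and 47.4 CPM and the ONP libraries 1, 2, 5 and 6 had 0.306, 0, 1.66 and 2.34 CPM. The groups did not overlap at either time, and the fitted log2FC was 4.41 at 7 days. Thbs1 too passed the filter through the ONH libraries alone at both times, so these values are a description. Thbs3 was higher in the ONH at 30 days by 1.25 (SE 0.18, edgeR adjusted p = 7.52e-05), and its 7 day difference of 0.48 was not called. Thbs2 was lower in the ONH at 30 days by 1.97 on the log2 scale (4.37 ± 1.81 against 17.5 ± 5.12 CPM, edgeR adjusted p = 0.000146), without overlap, and at 7 days the log2FC was -0.36 and not called. Thbs4 had 1.19 ± 0.997 CPM in the ONH and 0.0869 ± 0.117 CPM in the ONP at 30 days and did not pass the filter in either regional comparison. Pool 7 held 7 of its 14 ONP counts, and without that pool the ONP had 0.0540 ± 0.0857 CPM (SD, n = 6).

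Spp1, secreted by activated microglia and macrophages among other cells, reached 1199 CPM in pool 7 of the ONH at 30 days and 1789 CPM in pool 7 of the ONP, against 119 and 208 CPM in the next highest pools. The median over the 7 pools was 48.8 CPM in the ONH and 39.9 CPM in the ONP. The same pool had the highest microglia and macrophage marker sum in both regions, and its part in the level of Spp1 was not tested. The regional log2FC of Spp1 was -0.45 with an SE of 1.2 at 30 days and was not called. Mgp, Postn and Tgfbi, proteins of calcified or fibrous tissue, were not called between the regions at either time, with log2FC from 0.05 to 1.85. Without libraries 5 and 6 of the ONH, Tgfbi had a log2FC of -1.25 at 7 days and an edgeR adjusted p of 0.0351.

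In the elastic fibre group Fbln5, the fibulin that assembles elastic fibres, had the largest difference. At 30 days it ranged from 51.9 to 168 CPM in the ONH (median 68.2 CPM) and from 10.2 to 18.1 CPM in the ONP (median 11.5 CPM). At 7 days the ONH libraries 1, 3, 5 and 6 had 153, 101, 55.9 and 196 CPM and the ONP libraries 1, 2, 5 and 6 had 18.5, 10.2, 10.4 and 14.5 CPM. Every ONH library lay above every ONP library at both times, with a log2FC of 2.90 (SE 0.28, edgeR adjusted p = 2.28e-06) at 30 days and 3.26 (SE 0.37, edgeR adjusted p = 0.00043) at 7 days. The lysyl oxidases Loxl1 and Loxl2, which crosslink elastin and collagen, were also higher in the ONH, by 1.66 and 1.64 on the log2 scale at 30 days (edgeR adjusted p = 0.0037 and 4.29e-05) and by 1.69 and 1.06 at 7 days (edgeR adjusted p = 0.0244 and 0.00936). The 7 day call of Loxl1 was lost in 5 of 16 alternatives, namely without ONH library 1, without ONP library 1, 2 or 5, and without ONH libraries 5 and 6 together (log2FC 1.39, edgeR adjusted p = 0.0992). Fbn1 (fibrillin 1) was higher in the ONH at 30 days (log2FC 0.76, SE 0.24, edgeR adjusted p = 0.0201). At 7 days every ONH library lay above every ONP library, and the log2FC of 1.11 had an edgeR adjusted p of 0.0521. It was called in 5 other settings, among them DESeq2 (adjusted p = 0.011) and limma-voom (adjusted p = 0.0282). Eln (elastin), Fbn2, Fbln2 and Lox were not called between the regions. Fbln1 had a log2FC of -0.46 at 30 days with an edgeR adjusted p of 0.0558, and it was called lower in the ONH with the pool as a block (adjusted p = 0.0289), by DESeq2 (adjusted p = 0.0412) and by limma-voom (adjusted p = 0.0452).

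Markers of other cells also differed between the regions, where 41.8% (30 days) and 13.2% (7 days) of all genes were called. Over all tested members at 30 days, 5 pericyte and smooth muscle markers were higher in the ONH and 6 lower (median log2FC -0.16). Fibroblast markers were split 6 higher and 8 lower (median -0.10). At 7 days the splits were 10 and 2 (median 0.96) and 12 and 2 (median 0.95). Endothelial markers were 9 higher and 3 lower at both times (medians 0.58 and 0.49). Pericyte and smooth muscle markers, led by Tagln in the ONH and Vtn in the ONP, summed to 341 to 949 CPM in the ONH and 255 to 467 CPM in the ONP at 30 days, and to 709 to 1496 CPM and 333 to 544 CPM at 7 days. Of 11 tested at 30 days 4 were called higher in the ONH, among them Cnn1 (3.51) and Acta2 (2.24), and 1 lower, and of 12 at 7 days 3 were called, Cnn1 (5.40), Acta2 (3.01) and Tagln (2.64), all higher. Of 14 fibroblast markers 2 were called higher at 30 days, Col1a2 (2.44) and Foxc1 (1.54), and 2 lower, Slc47a1 and Pdgfra, and at 7 days Col1a2 (2.12) alone. Pdgfra stood in the list of oligodendrocyte precursor markers as well, so the sums of both lists hold it. In the ONP at 30 days it was the most abundant gene of the fibroblast list, with a mean of 92.5 CPM. Endothelial markers called higher numbered 3 of 12 at 30 days and 1 of 12 at 7 days, with Kdr in both (1.84 and 1.98). All 9 photoreceptor and 7 of 8 pigment cell markers tested at 30 days were called higher in the ONH, as were 7 of 8 of each at 7 days. Of 9 neuron and axon markers tested 4 were called higher at 30 days, led by Nefh (5.67), and 2 lower, with sums of 67.7 to 234 CPM in the ONH and 82.5 to 266 CPM in the ONP. Tubb3 was the most abundant of them, and Pou4f2 was at 0 throughout both groups. Of 8 Schwann cell markers 4 were called higher at 30 days, led by Scn7a (4.40), and 1 lower, with sums of 384 to 651 CPM against 375 to 520 CPM. Pmp22 made up most of these sums. At 7 days 4 of 9 neuron markers were called higher and 1 lower, and 2 of 8 Schwann cell markers higher. The astrocyte markers themselves differed as well. At 30 days 9 of 15 were called, 7 lower in the ONH, among them Gjb6 (-1.89), Aqp4 (-1.43) and Gfap (-0.50), and 2 higher, Slco1c1 (3.26) and S100b (0.76). At 7 days 4 of 15 were called, Slco1c1 higher and Aqp4, Atp1b2 and Slc1a2 lower. The part of these cells in the regional differences of the matrix genes was not tested.

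Of the small leucine-rich proteoglycans, which decorate collagen fibrils, 1 of 6 was called between the regions at each time, where 41.8% (30 days) and 13.2% (7 days) of all genes were. Fmod (fibromodulin) had 121 ± 46.6 CPM in the ONH and 65.4 ± 21.7 CPM in the ONP at 30 days (log2FC 0.93, SE 0.27, edgeR adjusted p = 0.0113) and 177 ± 99.9 against 55.7 ± 24.5 CPM at 7 days (log2FC 1.69, SE 0.43, edgeR adjusted p = 0.0274). The groups overlapped at both times, and 5 of 16 alternatives took the 7 day call away. Bgn, Dcn, Lum, Ogn and Prelp were not called, and the SE of their differences between the regions was 0.26 to 0.73 on the log2 scale.

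Decorin (Dcn) is a case of a wide spread between the libraries of a group. At 7 days the ONH libraries 1, 3, 5 and 6 had 193, 48.2, 214 and 634 CPM and the ONP libraries 1, 2, 5 and 6 had 121, 147, 34.6 and 232 CPM. At 30 days it ranged from 32.9 to 258 CPM in the ONH and from 14.3 to 256 CPM in the ONP, with pool 5 the highest in both. The library with the most Dcn, ONH library 6 at 7 days, also had the highest sum of the 15 fibroblast markers, 2116 CPM with Col1a2 the most abundant, and pool 5 had the highest such sum of both regions at 30 days, 837 and 641 CPM. No marker of the list was at 0 throughout a group. The part of fibroblasts in these levels was not tested.

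**Figure D4:**
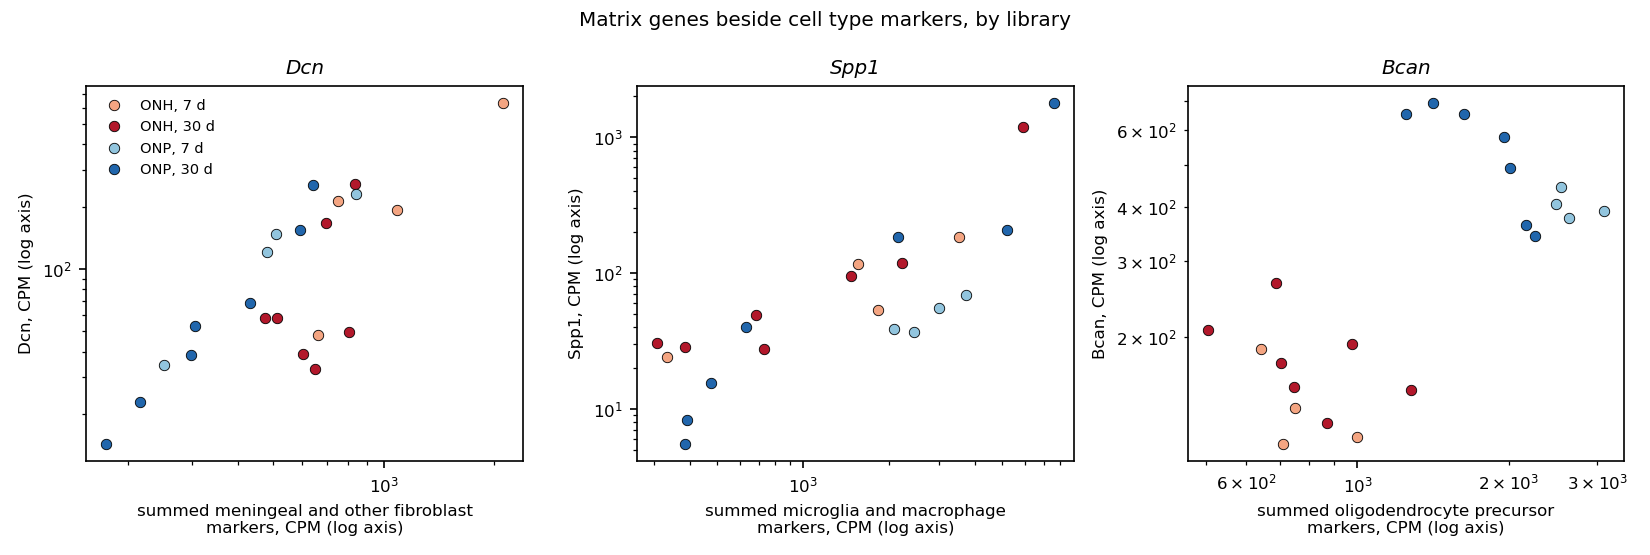
Dcn, Spp1 and Bcan in each of the 22 libraries (CPM, log axis) against the summed CPM of fibroblast, microglia and macrophage, and oligodendrocyte precursor markers (log axis), coloured by group. The library highest in Dcn was highest in fibroblast markers and the pools highest in Spp1 were highest in microglia and macrophage markers, while Bcan separated the regions at both times.

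In the ONH no change with time passed the threshold, and 0 of the 45 matrix genes tested were called at 30 against 7 days by edgeR, as were 0% of all 15668 genes. At an unadjusted p-value under 0.05 there were 19 matrix genes, 16 of them lower at 30 days, and 13.9% of all genes. DESeq2 called 3, of which Ogn and Nid1 were lower and Ncan was higher at 30 days, and a single edgeR fit of all 4 groups called Ogn and Ncan. The median log2FC was -0.65 over the tested matrix genes and -0.02 over all genes, with 33 of 45 lower at 30 days, among them all 6 small leucine-rich proteoglycans and all 9 elastic fibre genes. The fibroblast, endothelial, and pericyte and smooth muscle markers had median log2FC of -1.48, -1.95 and -1.32 in the same comparison, with 13 of 14, 12 of 12 and 12 of 12 lower and 0 called. Photoreceptor markers (10 of 10 lower, median -1.85), pigment cell markers (8 of 8 lower, median -0.79) and surface epithelium markers (7 of 7 tested lower, median -3.99) moved the same way, with 0 called. The part of these cells in the matrix genes was not tested.

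Ogn (osteoglycin or mimecan) had the smallest p-value of the 45 matrix genes in that comparison. Libraries 1, 3, 5 and 6 of the ONH had 25.3, 6.81, 12.9 and 82.6 CPM at 7 days, and the 7 pools at 30 days ranged from 3.41 to 10.5 CPM with a median of 6.23 CPM. Library 3 fell within the range at 30 days and library 6 lay far above all others. The log2FC was -2.21 (SE 0.53, edgeR adjusted p = 0.185) and -1.27 without the ONH libraries rich in photoreceptor markers. The next smallest p-values belonged to Nid1, Ncan, Hspg2, Eln, Mgp, Postn and Thbs1, with log2FC of -1.08, 0.89, -0.98, -1.16, -2.07, -1.89 and -1.44 and edgeR adjusted p-values from 0.189 to 0.252. Of these Postn alone had no overlap between the times (0.543% of all genes lay in full below their 7 day libraries). Postn reached the level of the filter in every ONH library at 7 days alone, so its log2FC and this separation are a description. Mgp, an inhibitor of calcification, had 38.5, 14.3, 264 and 199 CPM in libraries 1, 3, 5 and 6 at 7 days. Its 2 high values were those of the libraries with the most photoreceptor and endothelial markers, and without the ONH libraries rich in photoreceptor markers its log2FC was 0.05. Without the same libraries the log2FC of Eln was -0.10, of Hspg2 -0.17, of Nid1 -0.44 and of Postn -1.24, while Ncan (0.89) and Thbs1 (-1.34) moved little.

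**Figure D5:**
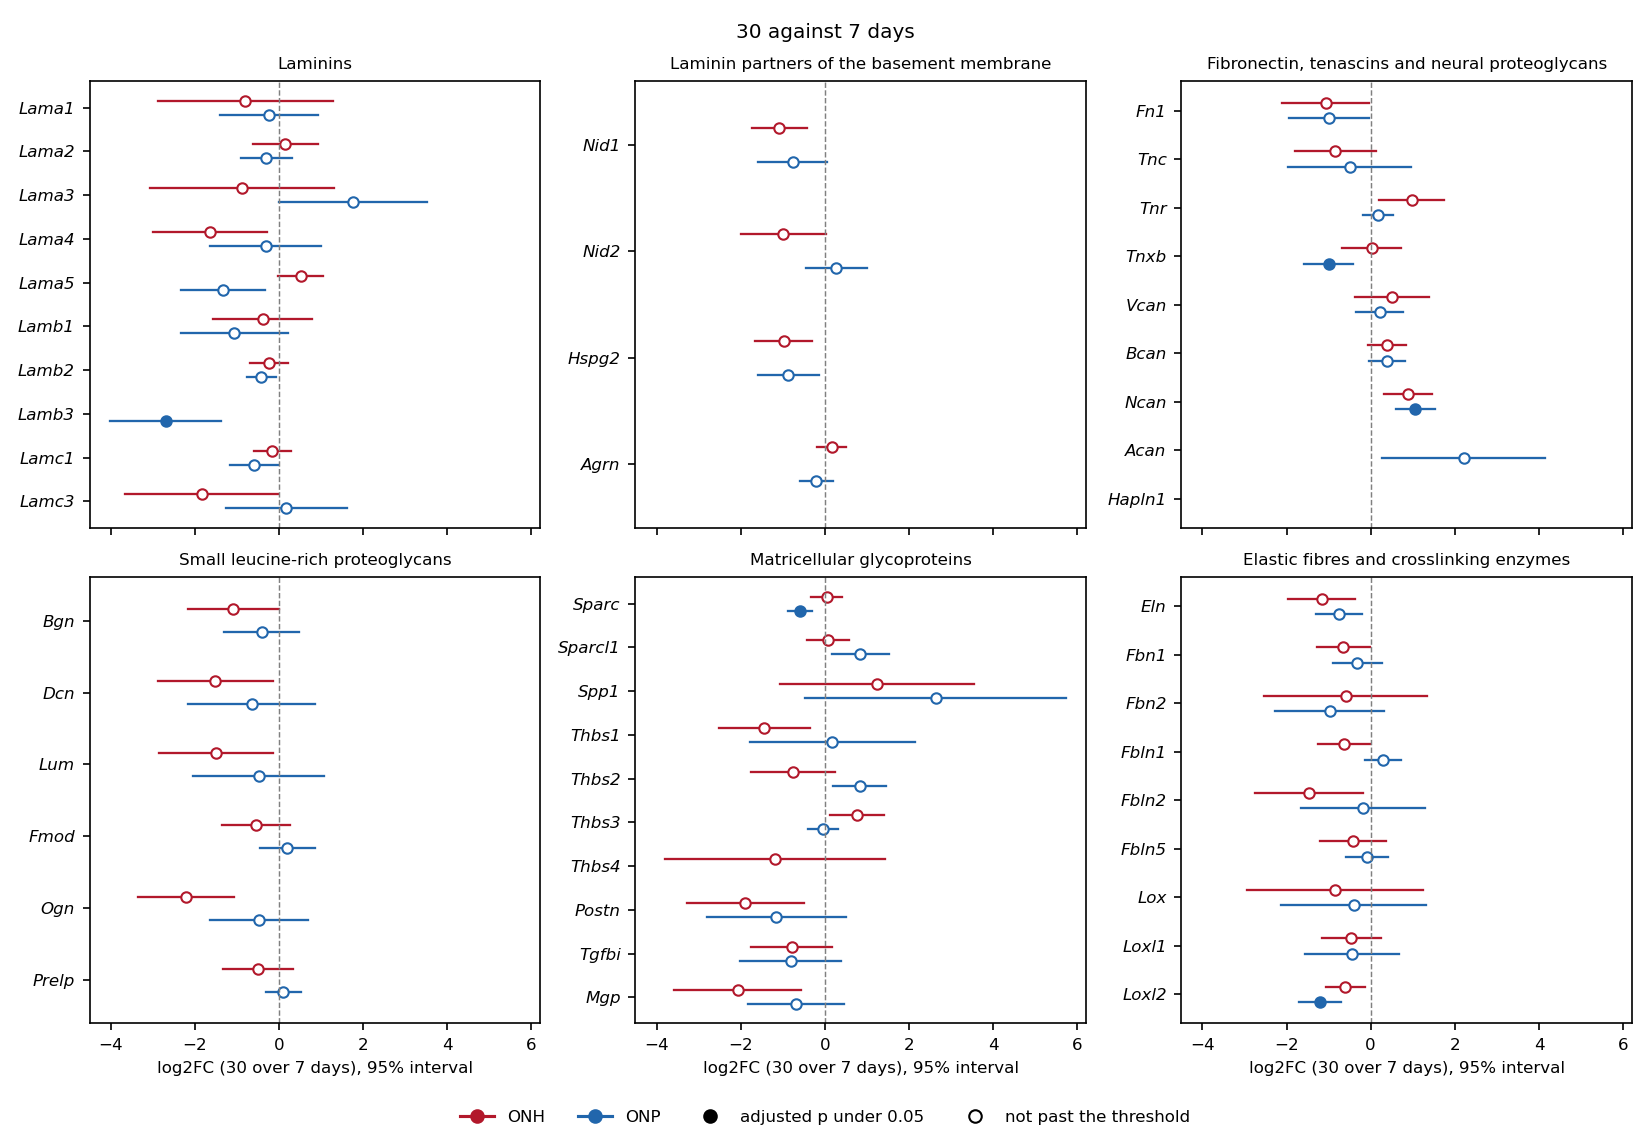
Change of the matrix genes from 7 to 30 days as log2FC (30 over 7 days) with 95% interval, by role, in the ONH (red) and ONP (blue). Filled points had an adjusted p-value under 0.05, which holds for Lamb3, Tnxb, Ncan, Sparc and Loxl2 in the ONP and for no gene in the ONH. Lamb3 passed the filter through its 7 day ONP libraries alone, so its point and interval are no measure of size.

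In the ONP 5 of the 46 matrix genes tested changed between 7 and 30 days, against 17% of all 15491 genes. Ncan rose (7.82% of all genes rose), and Lamb3, Loxl2, Tnxb and Sparc fell (9.21% of all genes fell). The times did not overlap for 1 gene above and 3 below (6.58% and 5.55% of all genes). The median log2FC was -0.36 over the tested matrix genes and -0.01 over all genes. Without pool 7 the count was 7, with Sparcl1 and Thbs2 added, both higher at 30 days, and without pool 5 it was 8. DESeq2 and limma-voom called 11 each, 5 and 3 of them higher.

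Ncan had 22.8, 11.5, 28.9 and 17.5 CPM in the ONP libraries 1, 2, 5 and 6 at 7 days and ranged from 32.0 to 49.4 CPM at 30 days, with a median of 44.7 CPM. The times did not overlap, and the log2FC was 1.06 (SE 0.21, edgeR adjusted p = 0.0066). In the ONH its log2FC was 0.89 and the test of the difference between the regions gave 0.18 (SE 0.32). Loxl2 fell by 1.21 on the log2 scale in the ONP (38.8 ± 8.33 CPM at 7 days, n = 4, and 17.2 ± 5.57 CPM at 30 days, n = 7, edgeR adjusted p = 0.00547) and Sparc by 0.58 (4443 ± 609 and 3043 ± 429 CPM, edgeR adjusted p = 0.0121), both without overlap. In a scaling by library size alone the median log2FC of all genes in this comparison moved by 0.11. Tnxb fell by 0.99 (29.4 ± 7.06 and 15.1 ± 6.09 CPM, edgeR adjusted p = 0.0257), with overlap, and the call was lost without library 1 or library 2 at 7 days and in a single fit of all 4 groups (adjusted p = 0.0623). The level of Lamb3 was 1.01 ± 0.289 CPM over the 7 day libraries and 0.152 ± 0.124 CPM over the 30 day pools. It passed the filter through its 7 day libraries alone and lay near the level of 3 counts at 30 days, so its fitted log2FC is no measure of size, and the other 4 called genes reached the filter in every library of both times. In the same comparison 8 of 12 endothelial markers and 8 of 12 oligodendrocyte markers were called lower at 30 days, with median log2FC of -2.27 and -0.80. Of the 15 astrocyte markers 10 were higher and 5 lower (median 0.25), with Gjb6 and S100b called higher and Slco1c1 and Glul called lower. The part of the mix of cells in the rise of Ncan and in the fallen matrix genes was not tested.

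Whether the change from 7 to 30 days differed between the regions was tested over all 4 groups, and 1 of the 47 matrix genes tested was called, against 0.543% of all 16748 genes (0.394% lower, 0.149% higher). This was Lamb3, which fell in the ONP and was at 0 in the ONH at 7 days. Its fitted value of -7.71 on the log2 scale depends on how the 0 is treated and is no measure of size. Since Lamb3 reached the level of the filter in every library of the ONP at 7 days alone, nothing is read from this call. In 8 of 30 alternatives the call was lost. The next smallest p-values belonged to Lama5 (-1.84), Sparc (-0.62), Thbs2 (1.58), Fbln1 (0.93), Thbs3 (-0.81), Tnxb (-1.01) and Ogn (1.74), with edgeR adjusted p-values from 0.14 to 0.387. For Sparc these values stand beside a log2FC of 0.04 in the ONH and -0.58 in the ONP. By edgeR a difference between the regions in the time course of these 7 genes was therefore not shown. DESeq2 called Lama5 alone among them (adjusted p = 0.0484).

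Other genes of the matrix were read from lists kept beside the 48. Their counts stand beside 41.8% of all genes called between the regions at 30 days, 13.2% at 7 days and 17% between the times in the ONP, and no list was tested against another. Of 8 basement membrane collagen genes 7 were tested between the regions at 30 days and all 7 were higher in the ONH, led by Col4a3 (log2FC 3.03), Col4a4 (2.35), Col18a1 (1.81) and Col4a6 (1.38). At 7 days 3 of 7 were called, Col4a4, Col4a3 and Col18a1, all higher in the ONH. In the ONP 4 of 7 fell between 7 and 30 days, Col18a1, Col4a6, Col4a5 and Col4a1, by 0.71 to 1.03 on the log2 scale. Of the matrix receptors 3 of 30 were called at 30 days, namely Sdc1 (1.33), a syndecan, and the integrin chains Itga3 (0.86) and Itga8 (0.80), all higher in the ONH, and at 7 days Sdc1, Itga3 and Sdc2. In the ONP 9 of 30 receptors changed from 7 to 30 days, with Sdc4 higher by 1.46 and 8 lower, among them Itga1, Sdc1, Itgb4 and Bcam.

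The remaining matrix glycoproteins were called in 20 of 39 cases between the regions at 30 days, 10 in each direction. Ltbp1 (2.44), which holds latent TGF-beta in the matrix, Ecm1 (2.34), Mfap2 (2.23), a protein of elastic microfibrils, and Ctgf (1.87) were higher in the ONH, and Nov (-3.15), Spock3 (-2.30), Reln (-2.18) and Smoc2 (-2.0) were higher in the ONP. At 7 days 11 of 39 were called, 6 higher in the ONH with Mfap2, Ecm1, Matn2 and Ltbp3 the largest, and 5 lower. In the ONP 13 of 39 changed from 7 to 30 days, 11 of them lower, with Matn3 (-2.49), Ctgf (-1.89), Ltbp1 (-1.35) and Spock1 (-1.33) the largest falls and Reln and Fbln7 higher. The interaction called Ltbp1 (-1.30, edgeR adjusted p = 0.0321).

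Among the remaining proteoglycans and link proteins 8 of 15 were called between the regions at 30 days. Esm1 (5.97), an endothelial proteoglycan, Gpc4 (1.71), an astrocyte glypican, and Optc (1.52) were higher in the ONH, and Prg4 (-1.91), Gpc5 (-1.64), Srgn (-1.47), Hapln2 (-1.25), the link protein of nodes of Ranvier, and Cspg5 (-0.63) were lower. At 7 days Esm1 and Gpc4 were higher and Hapln2 lower, 3 of 15 in all. Enzymes of glycosaminoglycan synthesis were called in 18 of 34 cases at 30 days, 7 higher in the ONH with Hs3st3a1 (1.36) and Chsy1 (1.2) in front and 11 lower with Has2 (-1.98) and Csgalnact1 (-1.55). At 7 days 4 of 32 were called, Hs3st3a1 and Chsy1 higher, Xylt1 and Hs3st1 lower. Enzymes that fold and crosslink matrix proteins were called in 5 of 16 cases at 30 days, with Plod2, P4ha1 and P4ha2 higher in the ONH and Tgm1 and Plod1 lower, and in 3 of 16 at 7 days. In the ONP from 7 to 30 days 3 of 15 of these proteoglycans (Gpc5 and Srgn higher, Esm1 lower), 3 of 35 of the synthesis enzymes (Chst3, Chst14 and Ndst1, all lower) and 5 of 17 of the folding enzymes (all lower, with Tgm2, Plod1, Serpinh1 and P4ha1 the largest) were called. In the ONH 0 genes of these lists were called between the times, and the interaction called Ndst1 (-0.84, edgeR adjusted p = 0.0282) besides Ltbp1.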

How the data were processed

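Ribosome-bound mRNA of 22 libraries was sequenced after reverse transcription with a poly-A kit that does not mark strand. Per the labels, the processing notes and the study's methods, reads were aligned to mm10 with STAR 2.6.1d and quantified with Salmon 0.14.2, and the estimated counts per gene were deposited by the authors as whole numbers. A second table of variance-stabilised log2 values deposited by the authors was not used. From the counts, library sizes were scaled by TMM and genes were kept by filterByExpr for the libraries of each comparison. The 4 pairwise comparisons and the interaction over 4 groups were tested with edgeR 4.0.16 (quasi-likelihood F test, limma 3.58.1, R 4.3.3), two-sided, and p-values were adjusted by Benjamini-Hochberg across every gene in the test, with a threshold of 0.05. The SE of a log2FC is its size divided by the square root of F. The scripts were tested on simulated data.

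The 48 genes, the role groups, the marker lists and the other matrix lists were chosen with earlier results of these data known. Named were all called genes, the 8 smallest p-values where fewer than 5 were called, and up to 4 called genes of each other list. Cspg5 and the uncalled genes named by role were added to complete a count or a role. The alternatives were DESeq2 1.42.0, limma-voom with quality weights, RLE factors, library size only, no filter beyond 1 count, 10 counts in every library, 1 fit of all 4 groups, a block by pool, and each library left out. Leaving out ONH libraries with over 1000 CPM of photoreceptor markers, or pool 7, was chosen after seeing the data.

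At 30 days equal numbers were taken to mark ONH and ONP of the same mice. The study's methods state that both regions came from the same mice, and not that the numbers match. Deviations from the group mean over 15133 genes correlated with r from 0.107 to 0.547 in the 7 pairs. Of the 7 pools, 3 correlated best with their own number, so the pairing by number, and with it the block, rests on an assumption. The 7 day columns of the count table carry numbers that differ from the labels, so they were assigned by region and day only. The lowest chi-square per gene between 2 libraries of a group was 18.1 over 54 pairs, so no library was a repeat of another. The p-values judge a difference between groups against the spread between pools of mice. A group at 0 was set at 3 counts over the group for a lower bound of a fold.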

Additional observations from a re-analysis of the deposited data

Results flagged for a closer look

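In 79 groups of values from 20 matrix genes, 5 held a library set apart from the rest of its group by more than Dixon's critical value, and chance gives about 5% of groups. Spp1 was such a case in pool 7 of both regions at 30 days, with 1199 CPM in the ONH (next 119 CPM) and 1789 CPM in the ONP (next 208 CPM). Pool 7 of the ONP was also high in Vcan, with 34.9 CPM against 22.6 CPM in the next pool. Thbs1 stood at 17.4 CPM in pool 4 of the ONH at 30 days, against 9.34 CPM in the next pool, and pool 4 was the ONH pool rich in photoreceptor markers. Thbs3 reached 158 CPM in pool 6 of the ONH, against 96.5 CPM in the next pool. Lamb3 had a change from 7 to 30 days that differed between the regions by a fitted -7.71 on the log2 scale (ONP minus ONH), a value set by the 4 ONH libraries at 0. It reached the level of the filter in every library of the ONP at 7 days alone, so nothing is read from this difference.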

How the results depend on the processing

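The count of called matrix genes between the regions at 30 days stayed within 18 to 23 when each library was left out, and was 24 with the replicate block of pools. At 7 days it was 7 to 13 with a library left out. No paired analysis of the regions was run at 7 days, and the 7 day tests are unpaired. The 7 day columns are numbered 1, 3, 5 and 6 in the ONH and 1, 2, 5 and 6 in the ONP, while the labels count 1 to 4. No column could therefore be tied to a labelled replicate, and whether equal column numbers mark the same mice at 7 days was not tested. The times could not be paired, because the 7 and 30 day libraries came from different mice. In the interaction a block by duplicateCorrelation gave 1. Between 30 and 7 days in the ONP the count was 4 to 8 with a library left out and 11 by DESeq2 and by limma-voom, against 5. In the ONH it was 0 with any library left out, 3 by DESeq2 and 2 in a single fit of all groups. The interaction gave 3 by DESeq2, 0 by limma-voom, 0 with 10 counts in every library, and 0 to 1 with a library left out. Mgp in the ONH reversed to 0.0525 without the libraries rich in photoreceptor markers, where Eln was -0.10, Hspg2 -0.17 and Nid1 -0.44, and the cause was not tested. Over all genes, the ONH called 0 between the times by edgeR, 446 by DESeq2, 292 in the single fit, 2 without a filter, 28 without the photoreceptor libraries and 0 to 167 with a library left out. The ONP called 2638, against 1189 in the single fit and 1439 to 3214 with a library left out. The 7 day contrast called 1940, against 3211 by DESeq2, 3785 in the single fit and 1102 to 2379. The interaction called 91, against 409 by DESeq2, 55 by limma-voom, 50 without a filter, 161 with the block, 441 and 58 without the photoreceptor libraries and pool 7, and 22 to 318 with a library left out. Scaling by library size moved the median log2FC of all genes by 0.11 in the ONP over time and in the 7 day contrast, and by 0.15 in the interaction. The 7 day contrast had 4 libraries per region and a biological coefficient of variation of 44.3%, and how small a difference could be detected there was not tested.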
